A study of Mus musculus with 9 samples.

Results

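A set of 9 genes known for bone formation and for restraint of calcification was followed in cultured VICs (valvular interstitial cells, which resemble fibroblasts and fill the valve leaflets). The 9 genes were taken by symbol from the 51810 genes of the expression table, and all 9 were found in it. They were the transcription factors Runx2, Msx2 and Sp7, the mineralisation enzymes Alpl and Enpp1, the transporter Ank, and the secreted proteins Spp1, Mgp and Tnfrsf11b. Source of the VICs was the aortic and the mitral valve of mice of the C57BL/6J strain, and they grew in a medium with serum, insulin, EGF and basic FGF. One set received oxidised low-density lipoprotein (oxLDL) at 50 ug/mL, one received native LDL at 50 ug/mL, and the Control set received buffer (one label calls it untreated), each for 24 h with 3 samples. The cells of both valves carry one label, so the valves cannot be told apart, and nothing in the labels says whether the 3 samples of a set were separate cultures or animals. The p-values therefore rest on sample-to-sample spread that may be technical. No osteogenic medium or added phosphate is named in the labels.

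Mineral forms in a valve when phosphate meets calcium in a matrix that no longer holds crystal growth back. Tissue-nonspecific alkaline phosphatase (Alpl) splits pyrophosphate, a strong inhibitor of crystal growth, into phosphate, whereas the ectoenzyme Enpp1 makes pyrophosphate from ATP and the membrane protein Ank brings pyrophosphate or its precursor out of the cell. Matrix Gla protein (Mgp) needs vitamin K-dependent carboxylation to block calcification, osteopontin (Spp1) binds mineral and slows its growth, and osteoprotegerin (Tnfrsf11b) is the decoy receptor that captures the osteoclast factor RANKL. Runx2 and, downstream of it, Sp7 (osterix) direct osteoblast differentiation, and Msx2 is a homeobox factor of bone and vascular calcification.

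Promoter windows are shown for the 3 genes whose window held the core of the RUNX binding motif, a motif chosen with the values of these genes known. Spp1 and Enpp1 had non-overlapping values between LDL and Control, and Runx2, a RUNX factor itself, had overlapping values. The part of RUNX factors in these values was not tested. Each window is the 250 bases before a RefSeq start site in GRCm38.p6, written 5′ to 3′ on the gene's strand, with the motif in capitals. The motif searched was ACCACA on both strands, and its longer form AACCACA, which contains it.
Spp1, chr5:104434861-104435110, plus strand: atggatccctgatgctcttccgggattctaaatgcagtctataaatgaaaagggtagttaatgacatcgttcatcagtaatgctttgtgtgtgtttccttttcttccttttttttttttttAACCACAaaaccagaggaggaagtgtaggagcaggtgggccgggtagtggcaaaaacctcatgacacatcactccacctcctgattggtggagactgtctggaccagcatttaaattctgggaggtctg
Runx2, chr17:44814628-44814877, minus strand: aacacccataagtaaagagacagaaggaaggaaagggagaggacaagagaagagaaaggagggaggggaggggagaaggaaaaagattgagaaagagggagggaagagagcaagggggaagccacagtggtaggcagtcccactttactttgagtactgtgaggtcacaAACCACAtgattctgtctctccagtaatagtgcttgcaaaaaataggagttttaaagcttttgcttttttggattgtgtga
Enpp1, chr10:24712160-24712409, minus strand: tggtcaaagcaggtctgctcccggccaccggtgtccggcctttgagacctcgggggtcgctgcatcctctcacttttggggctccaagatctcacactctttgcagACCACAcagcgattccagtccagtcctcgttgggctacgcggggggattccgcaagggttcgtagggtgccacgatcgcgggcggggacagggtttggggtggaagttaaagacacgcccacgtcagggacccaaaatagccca

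The longer form stood in the windows of Spp1 and Runx2, and Enpp1 held the short form alone. The short form began 128 bases before the start in Spp1, 80 before it in Runx2 and 144 before it in Enpp1. RefSeq gave windows for 6 of the 9 genes, 8 windows in all, of which 3 held the short form and 2 the longer one. Among all 32851 windows of the same length, 14% held the short form and 4.4% the longer one. The windows of Alpl, Msx2 and Ank, and the second window of Spp1, held neither. Ank, which lacked the motif, also had non-overlapping values between LDL and Control. A match describes letters in the window and is not a measured binding site.

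Levels are given as TPM (a measure of transcript abundance that corrects for gene length and sums to the same total in each library), so they can be set side by side between genes. How many reads stand behind each library is unknown, because TPM keeps no depth. The library was not stranded, so reads from overlapping genes on opposite strands cannot be told apart. All 7 valve fibroblast markers were measured at a mean of at least 1 TPM, and their summed level lay between 10452 and 12710 TPM with oxLDL, 10446 and 11399 TPM with LDL, and 11007 and 11589 TPM in Control. Of 4 markers of mature osteoblasts 0 reached a mean of 1 TPM. Macrophage and endothelial markers were present at lower levels, given below beside Spp1 and Mgp. Of the 5 smooth muscle markers 3 reached a mean of 1 TPM. Cardiomyocyte, chondrocyte, melanocyte and osteoclast markers summed to at most 63.4, 18.3, 16.7 and 9.66 TPM in any library. In these bulk samples, fewer cells of a type and less RNA per cell cannot be told apart. Libraries that carry the same replicate number in their titles deviated together, and what the number stands for (culture, animal or day) is not stated.

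Mean levels over the 9 libraries lay between 6486 TPM for Mgp and 0.03 TPM for Sp7. Mgp ranked from 1 to 42 among all genes of a library and was the most abundant transcript of LDL 1 and Control 1. Spp1 ranked from 55 to 263. Ank and Alpl came next, at means over the 9 libraries of 78.4 and 76.4 TPM, and their values overlapped. Enpp1 and Tnfrsf11b followed at 14.1 and 13 TPM and also overlapped. Runx2 averaged 3.49 TPM, Msx2 0.84 TPM and Sp7 0.03 TPM. Both secreted inhibitors of crystal growth, Mgp and Spp1, were thus far more abundant than the transcription factors, as the plot of TPM by library shows.

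**Figure D1:**
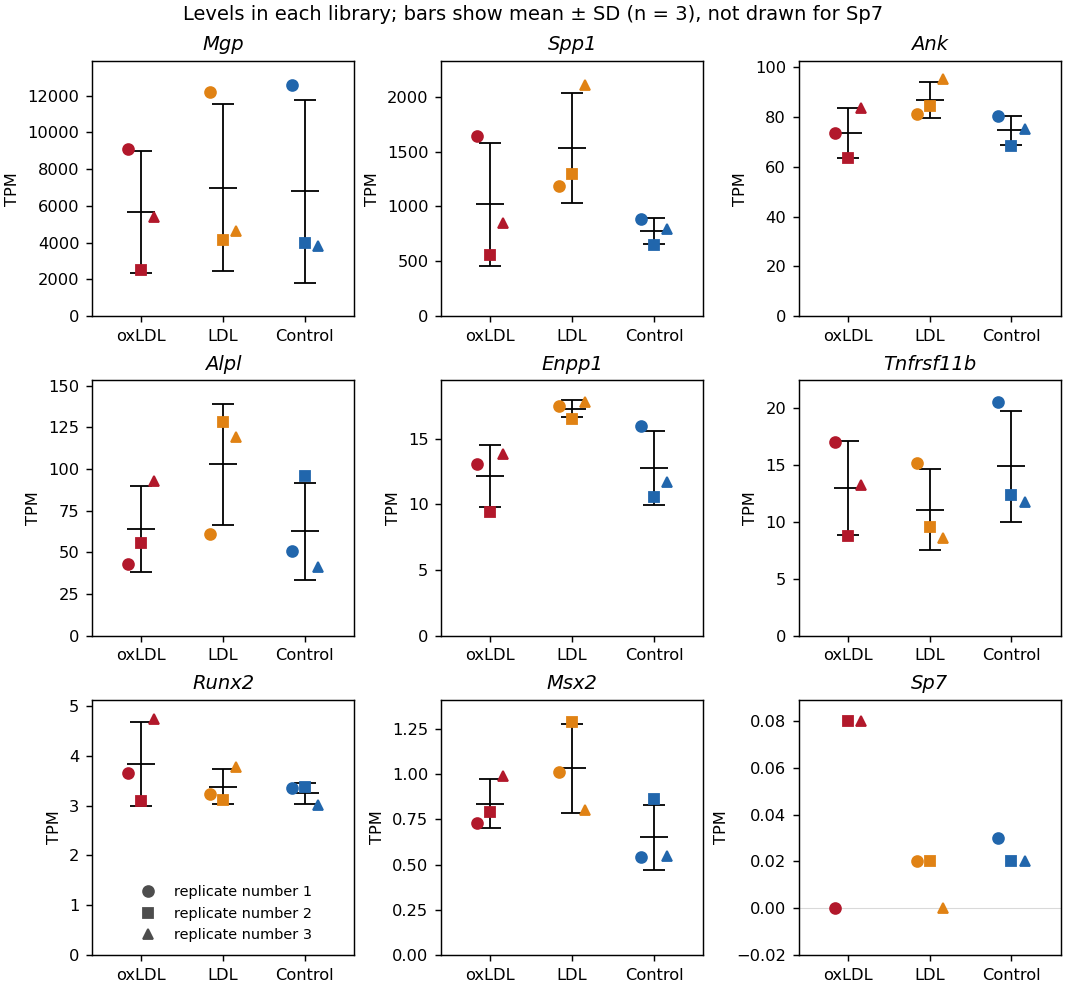
TPM of each of the 9 genes (y axis, linear, a scale of its own per gene) in the oxLDL, LDL and Control libraries. Marker shapes give the replicate number, and bars give the mean ± SD (n = 3), not drawn for Sp7, which is listed at 0 in 2 libraries. The number 1 libraries of Mgp, at 9086 to 12563 TPM, lie above the other 6 libraries, and all LDL values of Spp1, Enpp1 and Ank lie above all Control values.

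Among the transcription factors, Runx2 was low but listed in every library. Runx2 had 3.66, 3.09 and 4.75 TPM with oxLDL, 3.24, 3.12 and 3.78 TPM with LDL, and 3.36, 3.38 and 3.01 TPM in Control, in the order of replicate numbers 1 to 3. The 3 sets overlapped, and the highest value was that of oxLDL 3. On the log2(TPM + 1) scale Runx2 differed by 0.17 between oxLDL and Control (95% CI -0.16 to 0.50, adjusted p = 1), by 0.04 between LDL and Control (95% CI -0.29 to 0.37, adjusted p = 1) and by 0.13 between oxLDL and LDL (95% CI -0.20 to 0.46, adjusted p = 1). Between oxLDL and Control it ran between 0.040 and 0.29 with 1 library left out. The gene spans chromosome 17 from 44495987 to 44814797 on the minus strand of GRCm38 (GENCODE M21). Runx2os1, an antisense RNA listed at 0.59 to 1.94 TPM, shares 519 exonic bases with it, so its reads may be mixed with those of Runx2.

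Sp7, the osteoblast factor downstream of Runx2, was at or near 0 throughout. It was listed at 0, 0.08 and 0.08 TPM with oxLDL, 0.02, 0.02 and 0 TPM with LDL, and 0.03, 0.02 and 0.02 TPM in Control. With depth unknown, a value listed at 0 does not show absence, and no fold is given. Msx2 had 0.73, 0.79 and 0.99 TPM with oxLDL, 1.01, 1.29 and 0.8 TPM with LDL, and 0.54, 0.86 and 0.55 TPM in Control. LDL was higher than Control in each of the 3 same-numbered pairs, although LDL 3 lay below Control 2. Both genes averaged under 1 TPM and were left out of the test by the filter on low values, so that 7 of the 9 genes were tested. In a fit without that filter (27270 genes), Msx2 differed by 0.30 between LDL and Control (adjusted p = 0.85) and by 0.16 between oxLDL and Control (adjusted p = 1).

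In limma, 0 of the 7 tested genes passed an adjusted p of 0.05 in any of the 3 comparisons. Over all 13495 genes tested the share that passed was 0.333% for LDL against Control, 0.0148% for oxLDL against Control and 0.104% for oxLDL against LDL. At an unadjusted p under 0.05 there were 2, 0 and 1 of the 7 genes in that order, against 6.65%, 3.86% and 3.91% of all genes tested. The median log2 difference of the 7 genes was 0.22 for LDL against Control, -0.03 for oxLDL against Control and -0.31 for oxLDL against LDL. Over all genes tested the median was 0.00 in each. With the replicate number as a block, 0 of the 7 passed, and at an unadjusted p under 0.05 there were 4, 0 and 2, against 13.1%, 9.08% and 8.51% of all genes tested. A p that misses the threshold does not show that levels were equal. Intervals are from the fit without the block unless the blocked one is named.

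**Figure D2:**
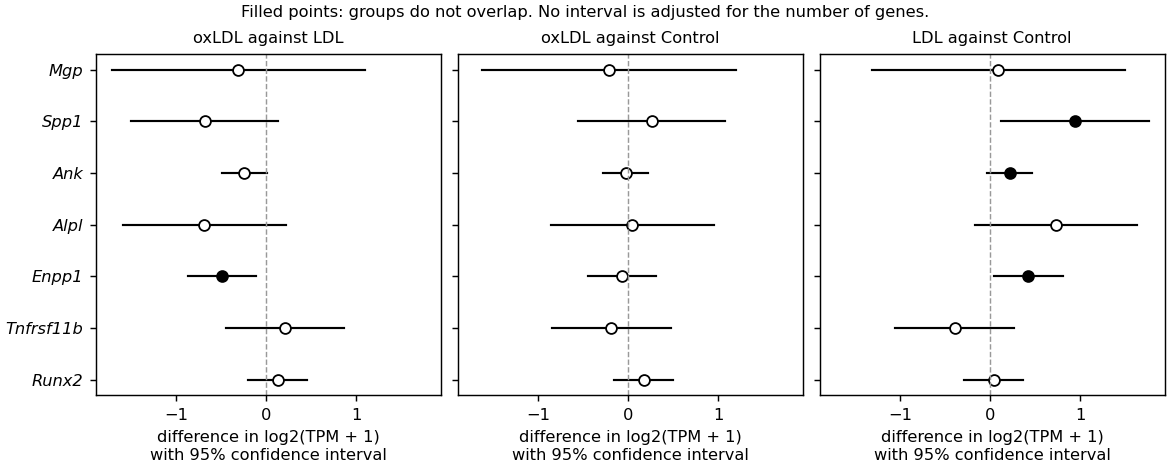
Difference in log2(TPM + 1) (x axis) with its 95% confidence interval from limma (fit without the replicate block) for the 7 tested genes in the 3 comparisons. Filled points mark genes whose 3 values of one set all lie above or all below the other set. They are Spp1, Ank and Enpp1 for LDL against Control and Enpp1 for oxLDL against LDL.

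With native LDL, 6 of the 7 tested genes had a higher mean than in Control and Tnfrsf11b had a lower one. Non-overlapping values were seen for 3 of the 7, all higher with LDL, against 10.7% of all genes tested. The shares of all genes tested in one direction alone were 5.61% higher and 5.06% lower, and 49.4% had a higher mean. In the 3 same-numbered pairs 5 of the 7 went one way, against 35.4% of all genes tested. The 3 genes with non-overlapping values were Spp1, Enpp1 and Ank. Enpp1 and Ank serve extracellular pyrophosphate supply, and Alpl, which splits pyrophosphate, was also higher with LDL in each same-numbered pair, with overlapping values. Summed levels of the 5 smooth muscle markers were lower in all LDL libraries than in all others. They were 1405 to 1455 TPM with oxLDL, 986 to 1263 TPM with LDL, and 1429 to 1675 TPM in Control. Nearly all of the sum was Acta2 (519 to 642 TPM with LDL, 725 to 928 TPM in Control) and Tagln (466 to 618 and 664 to 745 TPM). Neither passed in limma for LDL against Control (adjusted p = 0.21 and 0.50, and 0.070 and 0.065 with the replicate block). Cnn1, Myh11 and Des stayed at or below 2.18 TPM, and the means of Cnn1 and Des were not lower with LDL than in Control. The part of Acta2 and Tagln in the LDL values was not tested.

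With oxLDL, 3 of the 7 genes had a higher mean than in Control (49% of all genes tested) and 2 of the 7 a higher mean than with LDL (50.3%). Against Control, 0 of the 7 had non-overlapping values (7.33% of all genes tested) and 0 of the 7 went one way in all 3 same-numbered pairs (27.1%). Against LDL, 3 of the 7, Alpl, Enpp1 and Ank, went one way in all 3 pairs, each lower with oxLDL (31.5% of all genes tested went one way).

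Spp1 had 1188, 1300.0 and 2111 TPM with LDL, against 888, 651 and 792 TPM in Control. Its mean was 1533 ± 504 TPM in the LDL set and 777 ± 119 TPM in the Control set (SD, n = 3 each), a ratio of 1.97. The log2 difference was 0.94 (95% CI 0.12 to 1.76) and did not pass in limma over all genes (adjusted p = 0.61). With the replicate block its interval was 0.21 to 1.68, and it did not pass either (adjusted p = 0.25). The ratio was 1.34, 2.00 and 2.67 in pairs 1, 2 and 3. Spp1 is also made by macrophages, and the summed level of 8 macrophage markers was 657, 233 and 571 TPM with LDL, against 454, 234 and 448 TPM in Control. Most of the sum was Lyz2, at 541, 174 and 447 TPM with LDL and 370, 175 and 340 TPM in Control. Cd14 went another way, highest in number 2 of both sets (9.11 TPM with LDL, 9.17 TPM in Control), where the other markers were lowest. The part of macrophages in the Spp1 values was not tested.

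With oxLDL the Spp1 values scattered widely. There were 1645, 561 and 852 TPM of Spp1 with oxLDL, so that oxLDL 1 lay above every Control library and oxLDL 2 below every one. The mean was 1019 ± 561 TPM with oxLDL and 777 ± 119 TPM in Control (SD, n = 3 each). The log2 difference was 0.26 between oxLDL and Control (95% CI -0.56 to 1.08, adjusted p = 1) and was -0.16 when oxLDL 1 was left out. Between oxLDL and LDL it was -0.68 (95% CI -1.5 to 0.14, adjusted p = 1), and it was -1.10 without oxLDL 1, -0.32 without oxLDL 2 and -0.43 without LDL 3. With the replicate block the interval between oxLDL and LDL was -1.41 to 0.049 (limma adjusted p = 0.62). The macrophage marker sum in the oxLDL libraries was 500, 106 and 667 TPM, and both values of every library stand in the plot of Spp1 against these markers. Their part in the oxLDL values was not tested either.

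**Figure D3:**
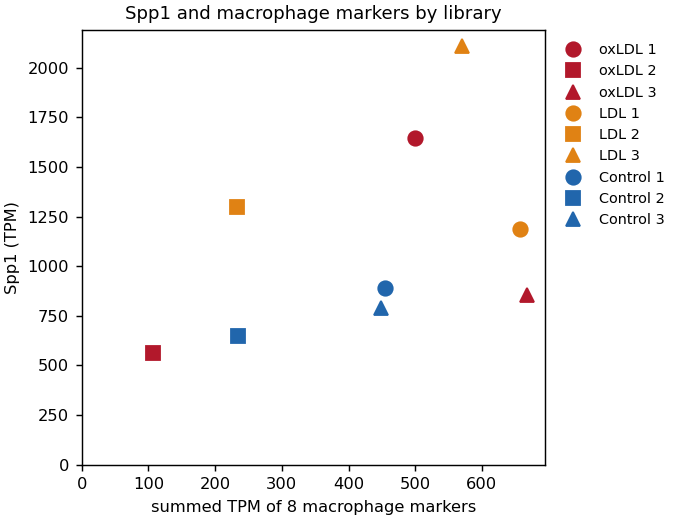
Spp1 in TPM (y axis) against the summed TPM of 8 macrophage markers (x axis) in each of the 9 libraries, by treatment (colour) and replicate number (shape). Marker sums, most of each being Lyz2, lie between 106 TPM (oxLDL 2) and 667 TPM (oxLDL 3). Spp1 lies between 561 TPM (oxLDL 2) and 2111 TPM (LDL 3). The part of the markers in the Spp1 values was not tested.

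The receptors that bind osteopontin were expressed, with Itgb1 at 597 to 704 TPM and Cd44, a hyaluronan and osteopontin receptor, at 155 to 195 TPM over the 9 libraries. Of the 8 listed osteopontin receptor genes, all 8 were tested and 0 passed in limma in any comparison, with or without the replicate number as a block. Their median log2 difference was 0.03 for LDL against Control, -0.07 for oxLDL against Control and -0.04 for oxLDL against LDL. All genes tested had a median of 0.00. Non-overlapping values between oxLDL and Control were seen for 3 of the 8, against 7.33% of all genes tested. Cd44 and the integrin chain Itga5 were higher with oxLDL (log2 differences 0.16 and 0.17) and the chain Itga9 was lower (-0.31), each with an adjusted p of 1. For LDL against Control, Itga5 (0.13) and Itga9 (-0.22) did not overlap, 2 of the 8 against 10.7%. Itgb3, named with its values known, overlapped but had the lowest adjusted p of the 8 in the blocked limma fit of 2 comparisons. It differed by 0.38 for LDL against Control (blocked adjusted p = 0.13) and by -0.56 for oxLDL against LDL (0.085).

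Enpp1, the ectoenzyme that makes pyrophosphate from ATP, had the smallest LDL spread relative to its mean among the 7 tested genes. It had 13.1, 9.46 and 13.9 TPM with oxLDL, 17.5, 16.6 and 17.8 TPM with LDL, and 16, 10.6 and 11.7 TPM in Control. All LDL libraries lay above all libraries of the other treatments, while oxLDL and Control overlapped. The log2 difference between LDL and Control was 0.43 (95% CI 0.05 to 0.81) and did not pass (adjusted p = 0.63). Between oxLDL and LDL it was -0.49 (95% CI -0.87 to -0.11, adjusted p = 0.89), and Enpp1 was the 1 of 7 genes with non-overlapping values there, against 8.31% of all genes tested. Between oxLDL and Control it was -0.06 (95% CI -0.44 to 0.32, adjusted p = 1). With the replicate block the intervals of Enpp1 were 0.14 to 0.71 between LDL and Control and -0.78 to -0.21 between oxLDL and LDL. Neither difference passed in the blocked limma fit (adjusted p = 0.19 and 0.26).

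Ank, the multipass membrane protein of pyrophosphate release, had the same order of means as Enpp1. It had 73.8, 63.6 and 83.5 TPM with oxLDL, 81.2, 84.6 and 95.1 TPM with LDL, and 80.3, 68.5 and 75.3 TPM in Control. LDL lay above Control without overlap, by a margin of less than 1 TPM between LDL 1 and Control 1. The log2 difference between LDL and Control was 0.22 (95% CI -0.03 to 0.46, adjusted p = 0.84), that between oxLDL and LDL was -0.24 (95% CI -0.49 to 0.005, adjusted p = 1) and that between oxLDL and Control was -0.03 (95% CI -0.27 to 0.22, adjusted p = 1). With the replicate block the intervals were 0.032 to 0.40 between LDL and Control and -0.43 to -0.059 between oxLDL and LDL, and neither difference passed (adjusted p = 0.3 and 0.41). Without oxLDL 2 the difference between oxLDL and LDL was -0.14. Over the 9 libraries Enpp1 and Ank went together (Pearson r = 0.91 on log2(TPM + 1)), and both went with Spp1 (r = 0.76 each). These are descriptions over libraries that share treatments and replicate numbers. Ank spans chromosome 15 from 27466677 to 27594909 and overlaps Otulin on the opposite strand, without a shared exonic base.

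Alpl, which splits pyrophosphate, had a wider spread within each treatment, relative to its mean, than Enpp1 and Ank. It had 42.9, 55.7 and 92.7 TPM with oxLDL, 61.2, 128 and 119 TPM with LDL, and 50.8, 95.8 and 41 TPM in Control. All 3 sets overlapped. LDL was above Control in each same-numbered pair, at ratios of 1.21, 1.34 and 2.91, and oxLDL was below LDL in each, at 0.70, 0.43 and 0.78. The log2 difference was 0.73 between LDL and Control (95% CI -0.17 to 1.63, adjusted p = 0.88), -0.68 between oxLDL and LDL (95% CI -1.58 to 0.22, adjusted p = 1) and 0.05 between oxLDL and Control (95% CI -0.85 to 0.95, adjusted p = 1). With 1 library left out the first ran between 0.48 (without Control 3) and 1.08 (without Control 2), and the second between -1.02 and -0.44. Between oxLDL and Control the pairs went both ways, with ratios of 0.84, 0.58 and 2.26. With the replicate block the intervals of Alpl were -0.021 to 1.49 between LDL and Control and -1.44 to 0.070 between oxLDL and LDL. Neither difference passed in the blocked limma fit (adjusted p = 0.40 and 0.64).

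The other genes of phosphate, pyrophosphate and matrix vesicles gave 12 tested of 14 listed. In limma 0 of the 12 passed in any comparison without the block, and 1 rose with LDL when the replicate number was added as a block. That gene was Enpp3, a relative of Enpp1 in the same phosphodiesterase family. In the blocked fit 0.852% of all genes tested passed for LDL against Control, 0.126% for oxLDL against Control and 0.259% for oxLDL against LDL. Enpp3 had 3.12, 1.57 and 2.45 TPM with oxLDL, 6.26, 3.79 and 7.32 TPM with LDL, and 3.21, 1.83 and 2.33 TPM in Control. Its log2 difference between LDL and Control was 0.96 (95% CI 0.38 to 1.53, limma adjusted p = 0.3, and 0.033 in the blocked fit), and that between oxLDL and LDL was -0.995 (adjusted p = 0.56, and 0.055 in the blocked fit).

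Of the same 12 genes, 5 were higher with LDL than in Control without overlap (against 5.61% of all genes tested) and 1, Anxa2, was lower. Besides Enpp3, the 5 were Nt5e, Phospho1, Slc20a2 and Anxa6, chosen after their values were seen. Nt5e (CD73), which makes adenosine from AMP, had 16.5, 18.3 and 15.1 TPM with LDL, against 7.24, 12.1 and 5.09 TPM in Control. Its log2 difference was 1.02 (adjusted p = 0.24). Phospho1, a phosphatase of matrix vesicles, had 16, 17.3 and 15.5 TPM with LDL, against 14.4, 9.27 and 9.36 TPM in Control. Its log2 difference was 0.55 (adjusted p = 0.37). The phosphate transporter Slc20a2 differed by 0.22 and the annexin Anxa6 by 0.13 (adjusted p = 0.58 and 0.81). For oxLDL against LDL 5 of the 12 did not overlap (8.31% of all genes tested), with Enpp3, Phospho1, Nt5e and Anxa6 lower with oxLDL and the phosphate transporter Slc20a1 higher. The median of the 12 was 0.08 for LDL against Control, 0.04 for oxLDL against Control and -0.05 for oxLDL against LDL. Most abundant among them were the calcium-binding Anxa2, at 1166 to 1432 TPM, and Anxa5, at 507 to 794 TPM.

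Mgp differed far more between replicate numbers than between treatments. It had 9086, 2503 and 5421 TPM with oxLDL, 12222, 4139 and 4615 TPM with LDL, and 12563, 4008 and 3815 TPM in Control. The number 1 library was the highest of each treatment, and all 3 number 1 libraries lay above the other 6. Replicate numbers held 88.8% of the sum of squares of Mgp and treatments 2.82%. The number share was higher than in 96.3% of all genes tested, whose median was 44.2%.

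The log2 difference of Mgp was -0.21 between oxLDL and Control (95% CI -1.62 to 1.19), 0.09 between LDL and Control (95% CI -1.31 to 1.5) and -0.31 between oxLDL and LDL (95% CI -1.71 to 1.10), each with an adjusted p of 1. With the replicate block the intervals were narrower, at -0.70 to 0.27, -0.39 to 0.58 and -0.79 to 0.18 in the same order. Within numbers, the ratio of oxLDL to Control was 0.72, 0.62 and 1.42, and that of LDL to Control was 0.97, 1.03 and 1.21. The log2 difference between LDL and Control turned to -0.40 without LDL 1, -0.17 without Control 2 and -0.20 without Control 3. Between oxLDL and Control it turned to 0.35 without Control 1 and 0.28 without oxLDL 2, and between oxLDL and LDL to 0.19 without LDL 1 and likewise without oxLDL 2. Endothelial markers, taken as a sum, were also highest in number 1. The 6 of them summed to 195, 90.9 and 115 TPM with oxLDL, 205, 91.5 and 101 TPM with LDL, and 193, 88.8 and 140 TPM in Control, and their part in the Mgp values was not tested. Among them Vwf was not highest in number 1 of any treatment. It had 1.43, 1.42 and 3.17 TPM with oxLDL, 1.89, 1.69 and 2.08 TPM with LDL, and 1.92, 2.87 and 2.34 TPM in Control.

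Tnfrsf11b, the decoy receptor for RANKL, also went with the replicate number. It had 17, 8.75 and 13.3 TPM with oxLDL, 15.2, 9.5 and 8.54 TPM with LDL, and 20.5, 12.4 and 11.7 TPM in Control. The sets overlapped, but LDL was below Control in each same-numbered pair, at nearly equal ratios of 0.74, 0.77 and 0.73. The log2 difference between LDL and Control was -0.39 (95% CI -1.05 to 0.27, adjusted p = 0.98). With the replicate block its interval was -0.70 to -0.085, and it did not pass (adjusted p = 0.25). The difference was -0.15 without Control 1, -0.24 without LDL 3 and -0.62 without LDL 1. It was the only one of the 7 genes with a lower mean in LDL than in Control. Between oxLDL and Control the difference was -0.18 (95% CI -0.84 to 0.47, adjusted p = 1) and the pairs went both ways. Between oxLDL and LDL it was 0.21 (95% CI -0.45 to 0.87, adjusted p = 1), with values from 0.0059 to 0.45 when 1 library was left out. Numbers held 70.9% of its sum of squares and treatments 17.8%, and over the 9 libraries it went with Mgp (Pearson r = 0.86).

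**Figure D4:**
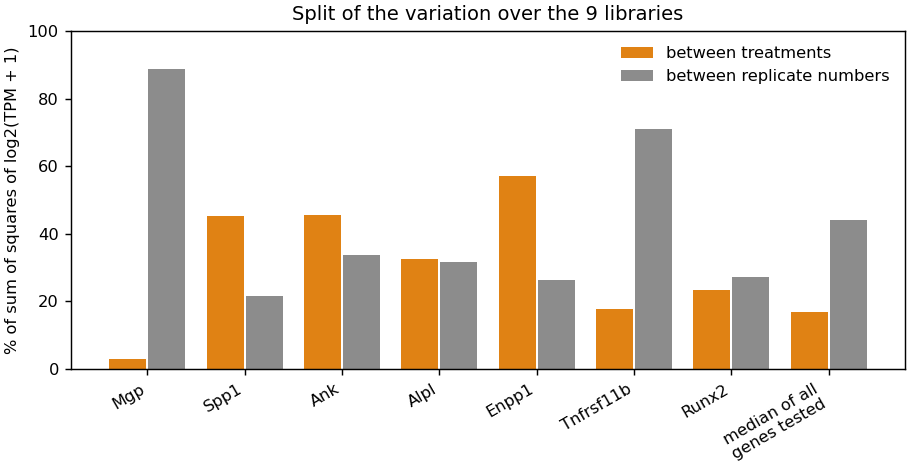
Share of the sum of squares of log2(TPM + 1) over the 9 libraries (y axis, percent) that lies between the 3 treatments and between the 3 replicate numbers, for the 7 tested genes and as the median of all genes tested. Replicate numbers hold 88.8% for Mgp and 70.9% for Tnfrsf11b, and treatments hold 57.2% for Enpp1.

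For Enpp1 the split was the other way round, with 57.2% between treatments and 26.4% between numbers. Spp1 and Ank had 45.3 and 45.5% between treatments, and 21.5 and 33.6% between numbers. Alpl had 32.6% between treatments and 31.6% between numbers. Runx2 had 23.4% between treatments and 27.3% between numbers, and the medians of all genes tested were 16.9% and 44.2%.

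RANKL itself (Tnfsf11), the ligand that osteoprotegerin captures, was listed at 1.34, 0.49 and 0.75 TPM with oxLDL, 1.57, 0.86 and 0.75 TPM with LDL, and 1.75, 1.08 and 0.47 TPM in Control. Of the 10 listed genes of the osteoprotegerin and osteoclast axis 5 were tested and 0 passed in limma in any comparison, with or without the block. Csf1, the growth factor of macrophages and osteoclasts, was the most abundant of them at 804 to 1238 TPM. The median log2 difference of the 5 was 0.00 for LDL against Control, 0.08 for oxLDL against Control and -0.08 for oxLDL against LDL. Among the osteoclast genes of this list, Ctsk lay at 95.3 to 139 TPM, Nfatc1 at 15.6 to 22.7 TPM and Acp5 at 1.8 to 9.07 TPM. Levels of Calcr, Dcstamp and Oscar each stayed under 1 TPM.

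The genes of Gla protein carboxylation and of other calcification inhibitors, which include the enzymes that make Mgp active, gave 6 tested of 8 listed. In the LDL set all 6 had means above those of the Control set (median log2 difference 0.21), where 49.4% of all genes tested had a higher mean, and 0 passed in limma with or without the block. For oxLDL against Control 3 of the 6 had higher means (median -0.04), and for oxLDL against LDL 1 of the 6 (median -0.31). Non-overlapping values between LDL and Control, all higher with LDL, were seen for 2 of the 6, against 5.61% of all genes tested. They were Fetub, a relative of the plasma inhibitor fetuin-A (log2 difference 0.69, adjusted p = 0.16), and Ggcx, the gamma-carboxylase of Mgp (0.14, adjusted p = 0.96). Vkorc1, which recycles vitamin K, lay at 89.1 to 141 TPM, and Gas6, a Gla protein that binds receptor kinases, at 202 to 491 TPM. Ahsg (fetuin-A, an inhibitor of mineral growth in serum), named after its values were seen, had 57.3, 10.8 and 87.7 TPM with oxLDL, 101 (LDL 1), 36.3 and 51.5 TPM with LDL, and 50.6, 28.2 and 15.7 TPM in Control. Its sets overlapped, and oxLDL 2 was the lowest library.

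Osteocalcin, bone sialoprotein and Mepe, all made by mature bone cells, were under 1 TPM in every library. Of the 12 listed bone matrix and late osteoblast genes 4 were tested, and 0 passed in limma in any comparison, with or without the block. The median of the 4 was -0.09 for LDL against Control, -0.07 for oxLDL against Control and 0.02 for oxLDL against LDL. Those tested were Sparc, which binds collagen and was listed at 2305 to 3690 TPM, the collagen chains Col1a1, at 1157 to 1584 TPM, and Col1a2, and the proteoglycan Omd. Omd had 2.59, 2.57 and 3.15 TPM with oxLDL, 3.4, 3.37 and 5.27 TPM with LDL, and 4.28, 4.01 and 7.22 TPM in Control. All oxLDL values lay below all others, at a log2 difference of -0.68 between oxLDL and Control and -0.39 between oxLDL and LDL. Neither passed (adjusted p = 1 each, and 0.14 and 0.37 with the block), and 7.33% and 8.31% of all genes tested had non-overlapping values in these comparisons. Osteocalcin (Bglap) was above 0 in oxLDL 2 and Control 1 only, at 0.34 and 0.56 TPM. The second osteocalcin gene, Bglap2, was above 0 in 4 libraries, at 0.44 TPM in oxLDL 1, 0.16 TPM in LDL 1, 0.63 TPM in LDL 2 and 0.24 TPM in Control 1. Bone sialoprotein (Ibsp) was above 0 in oxLDL 1 only, at 0.04 TPM, and Mepe, a matrix phosphoglycoprotein of osteocytes, was listed at 0 in all 9 libraries.

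The other osteochondrogenic transcription factors gave 5 tested of 10 listed, of which 0 passed in limma in any comparison, with or without the block. Their median log2 difference was -0.01 for LDL against Control, -0.13 for oxLDL against Control and 0.01 for oxLDL against LDL. Cbfb, the partner subunit of Runx2, lay at 45.2 to 54.1 TPM, and Twist1, which restrains Runx2 in bone, at 60.6 to 75.9 TPM. Dlx5, a homeobox factor of osteoblasts, lay at 0.05 to 0.18 TPM. Of the 62 genes of the 6 lists 40 were tested, and at an unadjusted p under 0.05 in limma there were 5 for LDL against Control, 3 for oxLDL against Control and 6 for oxLDL against LDL. Among all genes tested the shares were 6.65%, 3.86% and 3.91% in that order. Another 22 averaged under 1 TPM, and the lists were chosen with earlier results of these data known.

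For each tested gene, the 1 other gene most like it over the 9 libraries was taken among the 8315 (8316 for Runx2) candidates that averaged 10 TPM or more. Enpp1 was most like Slc44a1 (Pearson r = 0.99), a choline transporter, and Ank most like Epha7 (r = 0.97), an ephrin receptor. Mgp was most like Casp6 (r = 0.99), a caspase, and Tnfrsf11b most like Coro1b (r = 0.98), an actin-binding coronin. Alpl was most like Egfr (r = 0.98), the receptor of the EGF in the medium, Runx2 most like Pi15 (r = 0.94) and Spp1 most like Lmo1 (r = 0.92). Each is the best of many candidates over 9 libraries that share treatments and replicate numbers, and is given as a description.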

How the data were processed

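RNA of 9 VIC libraries was sequenced from amplified cDNA with the TruSeq RNA kit named in the labels' protocols, a kit without strand marking. The authors deposited TPM values for 51810 genes, made with STAR (no version named) and RSEM 1.3.1 on mm10, per the submitters' processing notes. Their annotation was not named there. All 9 columns were used, with 0 left out. Depth per library is unknown, so no counting interval is given.

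Values were analysed as log2(TPM + 1) for the 13495 genes that averaged 1 TPM or more, with limma 3.58.1 in R 4.3.3 (all 9 libraries, 6 residual degrees of freedom, mean-dependent prior, two-sided). P-values were adjusted by Benjamini-Hochberg over all genes tested, with a threshold of 0.05. The code was tested on simulated data. Fold ratios are of TPM, and log2 differences understate changes of low genes.

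The members and lists were chosen with earlier results of these data known. Named were all 9 genes, up to 3 called genes and the 2 most abundant genes per list, the gene most like each, and marker genes that define a cell type. Other list genes (such as Nt5e, Phospho1, Ahsg, Fetub, Ggcx, Dlx5, Tnfsf11, Nfatc1, Acp5, Mepe, Omd and Col1a2) were named with their values known.

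Replicate numbers come from the titles. Deviations from group means correlated at 0.172 to 0.497 in the 9 same-numbered pairs and at -0.309 to 0.13 in the 18 others, so the numbers pair the samples, by this check alone. Gene positions are from GENCODE M21 (GRCm38) and promoters from RefSeq (GRCm38.p6). Alternatives were the pseudocount, filter, scaling, prior, libraries in the fit, replicate block and leaving out each library.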

Additional observations from a re-analysis of the deposited data

How the results depend on the processing

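The count of 0 members passing held in all 18 alternatives and all 3 comparisons, and the lowest adjusted p of a member in any of them was 0.19 (Enpp1 for LDL against Control, with replicate number blocked, which left 4 residual degrees of freedom). The replicate block therefore changed no call of a member, and of the list genes it changed only that of Enpp3. Of the 21 differences of the 7 tested members, 11 kept their sign in every alternative that tested them (Runx2 was not tested at a mean of at least 5 TPM). The other 10 changed sign only when 1 library was left out, in 19 fits, 12 of them for oxLDL against Control. Over the fits that left out 1 library, LDL against Control ran from -0.023 to 0.084 for Runx2 and -0.40 to 0.65 for Mgp. For oxLDL against Control it ran from -0.16 to 0.62 for Spp1, -0.25 to 0.40 for Alpl, -0.18 to 0.10 for Enpp1, -0.12 to 0.073 for Ank, -0.65 to 0.35 for Mgp and -0.39 to 0.056 for Tnfrsf11b. For oxLDL against LDL it ran from -0.0017 to 0.24 for Runx2 and -0.74 to 0.19 for Mgp. Over all genes, 45 passed for LDL against Control, 2 for oxLDL against Control and 14 for oxLDL against LDL. In the same order the counts were 115, 17 and 35 with the block, and 4 to 38, 1 to 3 and 1 to 13 with 1 library left out. Without the filter they were 19, 10 and 8, with the 6 compared libraries alone 20, 1 and 7, and without the mean-dependent prior 38, 1 and 8. With a pseudocount of 5 the count for oxLDL against Control was 1. The unknown depth limits what can be said of Sp7, Msx2 and other genes under 1 TPM.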
